A study of Sus scrofa with 16 samples.

Results

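Sporadic peaks are methylation enrichment peaks that were called once and nowhere else in the study. They were chosen by position: a peak on chromosomes 1 to 18 was sporadic when it overlapped, by 1 bp or more, no other peak of its own list and no peak of the other 3 lists. This left 67338 sporadic peaks of 1068880 peaks on these chromosomes and of 1159046 peaks in all. The other 1001542 peaks on chromosomes 1 to 18 are called recurring peaks. The peaks come from MeDIP-seq of heart DNA of 16 castrated male pigs of 6 months of age, with 4 animals each of Tibetan pigs raised in the highland (TH), Yorkshire pigs raised in the highland (YH), Tibetan pigs raised in the lowland (TL) and Yorkshire pigs raised in the lowland (YL). TH and YL pigs were kept at the elevation usual for their breed. YH and TL pigs were also born at the site where they were sampled, but from parents of stock recently brought to it. Breed and elevation are the only labelled differences, but each elevation is also a single site. Each group has 1 list without animal names, in which up to 4 peaks cover the same base. The lists were read here as the joined calls of 4 animals, so that a sporadic peak is a call in 1 of 16 animals. The rule used the positions and lengths of the peaks, so the values that follow are descriptions and no test was made on them. The peak lists hold no expression values, so the tissue label was not checked against marker genes here.

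A methyl group on the cytosine of a CpG is copied to the new strand when a cell divides, and most CpGs of a mammalian tissue carry it, while active promoters with many CpGs usually do not. MeDIP pulls down sheared DNA with an antibody against 5-methylcytosine, so fragments with many methylated CpGs give the most reads. The peak caller MACS reports a region where the tags (mapped reads) pile up above the local background, and gives each peak its number of tags and its fold enrichment over that background.

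There were fewer sporadic peaks in YH than in each of the other groups. The lists held 18456 sporadic peaks in TH, 16386 in TL, 13471 in YH and 19025 in YL. As a share of the peaks on chromosomes 1 to 18, they made up 7.13% of the TH list (95% Wilson confidence interval 7.03–7.23%), 6.80% of the TL list (6.70–6.90%), 5.11% of the YH list (5.03–5.20%) and 6.22% of the YL list (6.14–6.31%). The intervals do not overlap, but they show counting error alone. Differences between animals of a group were not measured, since the lists name no animals. Group and read depth cannot be told apart with a single list for each group. In units of 1000000, the uniquely mapped reads of the 4 libraries of a group summed to 61.5 in TH, 56.0 in TL, 64.6 in YH and 68.3 in YL. Per 1000000 of these reads, there were 300.2 sporadic peaks in TH, 292.4 in TL, 208.5 in YH and 278.6 in YL. The highest of these rates was 1.44 times the lowest, while the rate of all peaks, sporadic or not, differed by 1.10 times between the lists. YL had the most reads and the most sporadic peaks, whereas YH had the next most reads and the fewest sporadic peaks, so the order by number was not the order by depth. With peaks under 20 tags left out of each list, TL in place of YH had the fewest, with 8349 sporadic peaks against 10480 in YH. With the TH rows that lack a separate end left out, a setting chosen after seeing the data, TH had the fewest, with 13771 against 14693 in YH, but its list is then shorter by 92036 peaks, and as a share TH was still highest (8.25%) and YH lowest (5.58%). Per 1000000 reads, TH went from the highest to the lowest rate under this setting, with the reads of all 4 TH animals still counted.

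**Figure D1:**
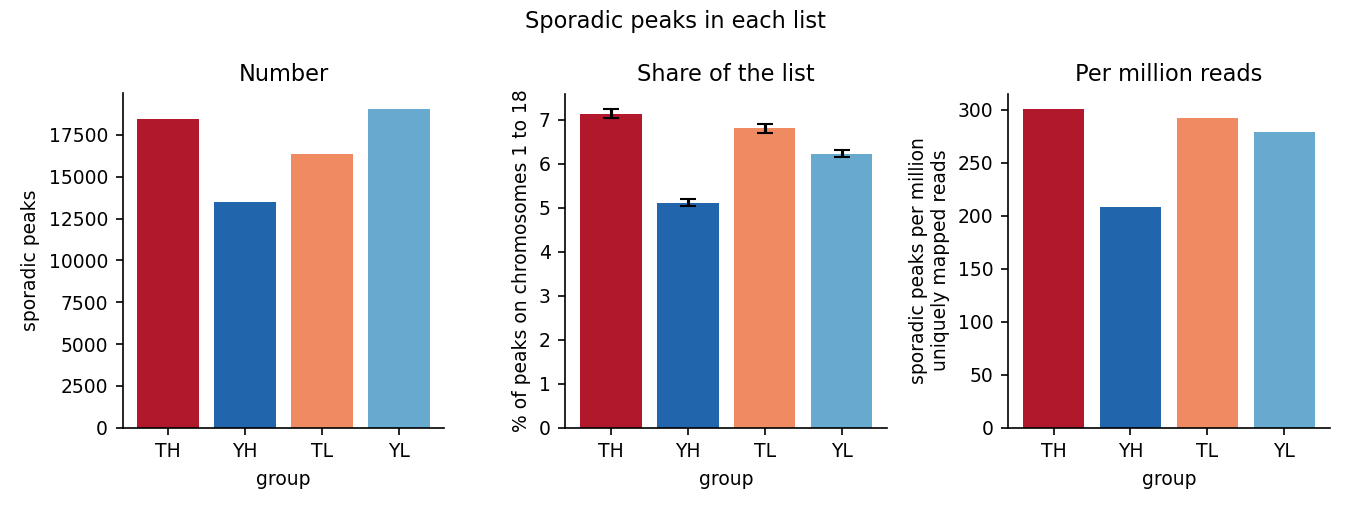
Sporadic peaks in the 4 lists, as their number, as their share of all peaks on chromosomes 1 to 18 with the 95% Wilson interval (counting error only), and per 1000000 uniquely mapped reads. YH has the lowest bar in each panel, with 13471 peaks, 5.11% and 208.5 per 1000000 reads.

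A peak can stand alone in its own list and still recur in another group. Such peaks, without overlap inside the list, numbered 65515 in TH, 65427 in TL, 60267 in YH and 64299 in YL, so the lists differed by 1.09 times here and by 1.41 times in sporadic peaks. Of the peaks alone in their list, 28.2% were sporadic in TH, 25.04% in TL, 22.4% in YH and 29.6% in YL. The rest met a peak of another group. Of the YH peaks alone in their list, 57.7% met a YL peak, 49.0% a TH peak and 45.1% a TL peak. For TL the shares were 54.6% with YL, 51.2% with TH and 48.8% with YH, and for TH they were 52.6% with YL, 44.9% with YH and 42.8% with TL. For YL they were 44.8% with TH, 43.9% with YH and 39.4% with TL. The YL list, which had the most peaks, thus met the largest share of the alone peaks of each of the other 3. Among TL peaks that met exactly 1 other list, however, that list was TH in 39.3% and YL in 34.4%. Leaving the YL list out of the search raised the number of YH sporadic peaks to 21467, the largest change that leaving out a list made for YH. Peaks that recurred only inside their own list were fewer than sporadic peaks in every group, with 7165 in TH, 4653 in TL, 3831 in YH and 7669 in YL.

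Most sporadic peaks were weak. The median sporadic peak had 18 tags in TH, 16 in TL, 18 in YH and 19 in YL, against 27, 26, 29 and 31 tags in the recurring peaks of the same lists. The lowest number of tags in a sporadic peak was 11 in TH and TL, 12 in YL and 13 in YH, which equals the lowest number in the recurring peaks of each list. Peaks of at most 15 tags made up 33.9% of the sporadic peaks in TH, 44.2% in TL, 25.7% in YH and 23.1% in YL. The lists had the same order over all their peaks, of which 14.1% in TH, 16.6% in TL, 8.12% in YH and 7.72% in YL had at most 15 tags. At the other end, a minority of sporadic peaks was well filled, since 20.3% had at least 30 tags, and the highest numbers were 319 in TH, 304 in TL, 283 in YH and 378 in YL. No sporadic peak came near the largest recurring peaks, which reached between 2202 tags (TH) and 3375 tags (YH) in the lists.

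The share of peaks that were sporadic fell as the tags rose. Over the 4 lists, 22.6% of the peaks with 11 to 12 tags were sporadic, 16.9% of those with 13 to 15, 10.1% of those with 16 to 19, 5.89% of those with 20 to 24 and 2.82% of those with 40 to 59. From 100 to under 200 tags the share was 1.72%, and at 200 or more it was 1.88% (95% Wilson confidence interval 1.53–2.31%). The last class held 38 sporadic peaks in TH, 3 in TL, 7 in YH and 41 in YL, and in each list the Wilson interval of its share held the share of the class before. Between 13 and 15 tags the lists were close, from 16.1% in YH to 18.1% in YL. Between 60 and 99 tags they ranged from 1.35% in YH and 1.63% in TL to 2.29% in YL and 3.15% in TH. In every class from 25 tags upwards, the TH list had the highest share and YL the next highest.

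**Figure D2:**
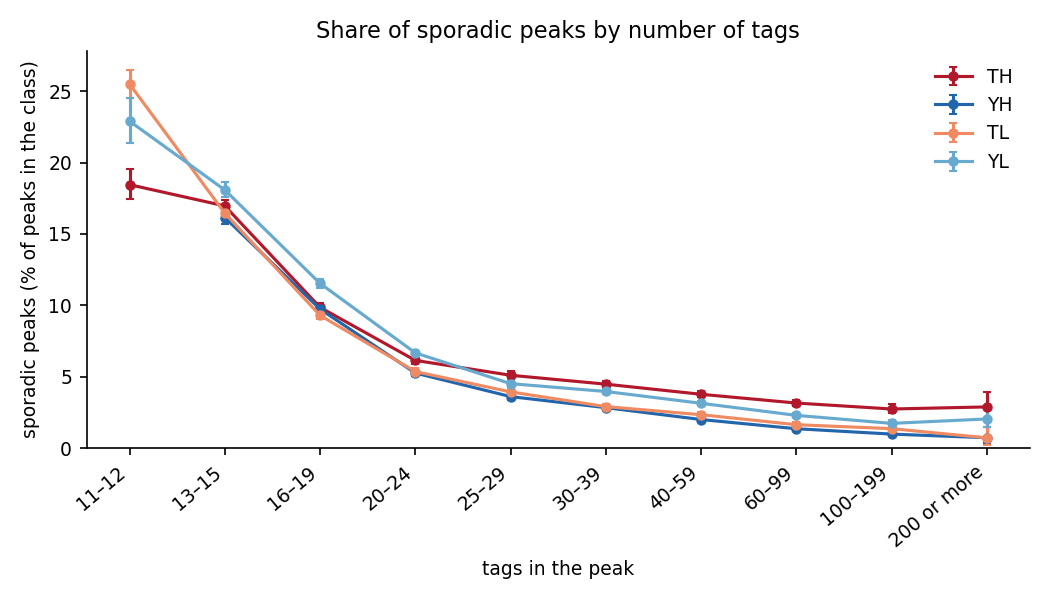
Share of peaks that are sporadic (y axis, %) among peaks with a given number of tags (x axis), for each list, with 95% Wilson intervals for counting error. The share drops from between 16.1% and 18.1% at 13 to 15 tags to between 5.25% and 6.67% at 20 to 24 tags, and above 25 tags TH lies on top. YH has no peak under 13 tags.

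Sporadic peaks were shorter than recurring peaks in each list. The median length was 770 bp in TH, 698 bp in TL, 763 bp in YH and 779 bp in YL, against 1013, 966, 1044 and 1063 bp in recurring peaks. Over the 4 lists, the lower and upper quartiles were 597 and 961 bp for sporadic peaks and 777 and 1464 bp for recurring peaks. A longer peak has more chance to touch another, so this difference is partly built into the rule. Per kb of length, the median was 25.8 tags in sporadic and 28.2 tags in recurring peaks. The summit, the point of highest pile-up, had a median position of 0.50 of the peak length in both kinds, with quartiles of 0.398 and 0.601 in sporadic and 0.382 and 0.616 in recurring peaks.

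Fold enrichment, in contrast, hardly separated sporadic from recurring peaks when all were pooled. Its median was 7.71 in sporadic and 7.70 in recurring peaks. Sporadic peaks were below recurring peaks in TH (7.91 against 8.30) and YL (7.35 against 7.50), and above them in YH (7.39 against 7.28) and TL (8.15 against 7.83). The upper tail did differ, since 5% of sporadic peaks lay above 11.2 and 5% of recurring peaks above 13.1. Of 18633 peaks with a fold enrichment from 15 to under 20, 96 were sporadic, and of 1854 peaks at 20 or more, 1 was. Over the 4 lists, 7.71% of the peaks with a fold enrichment between 8 and 10 were sporadic, against 5.54% of those under 4. The lists differed here, with 6.52% against 3.72% in YH, 8.69% against 4.97% in TL and 7.13% against 6.75% in YL, while in TH the share was 8.62% between 8 and 10 and 8.77% under 4.

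Ordered by the number of other peaks they overlapped, sporadic peaks stood at the low end of a gradual series and not apart from it. The rule used this same number, and a longer peak can touch more peaks, so part of the order is built in. The median number of tags was 18 with 0 other peaks, 20 with 1, 21 with 2, 22 with 3 and 39 with 12 to 15. The median length over the same steps was 752, 805, 846, 875 and 1251 bp. Peaks that overlapped 1 other peak, 69468 in all, were about as many as the sporadic peaks. The share in the outer 10% of the chromosome at each end was 19.6% with 0 other peaks, 20.9% with 1 and 31.4% with 12 to 15.

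**Figure D3:**
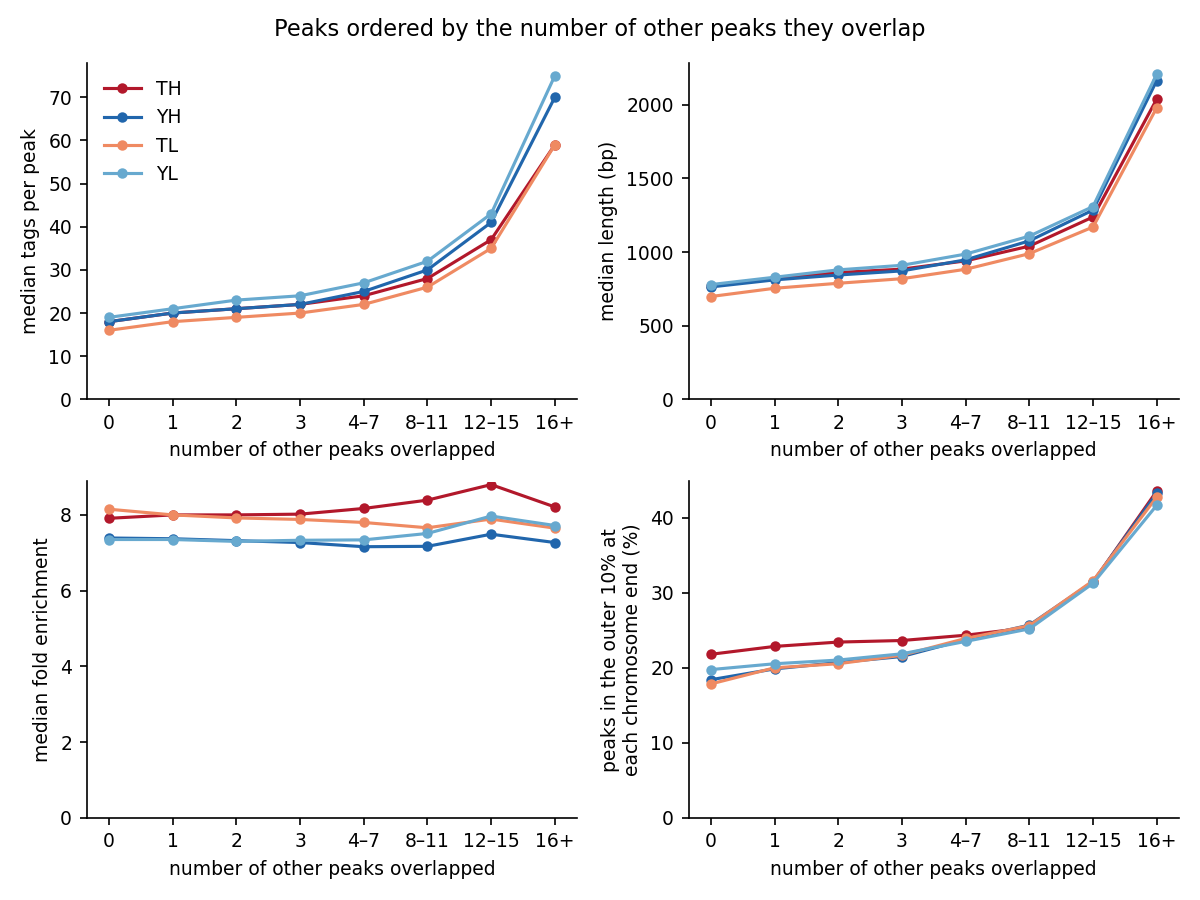
Peaks grouped by the number of other peaks of any list they overlap (x axis; 0 is sporadic). The panels give the median number of tags, the median length in bp, the median fold enrichment and the share in the outer 10% at each chromosome end, for each list. Tags, length and the share at the ends rise from 0 other peaks onwards, while the fold enrichment stays between 7.16 and 8.80.

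Compared at like numbers of tags, sporadic and recurring peaks differed in another way. Their lengths were then close, with medians of 829 bp in sporadic and 865 bp in recurring peaks of 20 to 24 tags. List by list, the median length was still shorter in sporadic peaks in 34 of the 37 classes with at least 20 sporadic peaks. The fold enrichment, which was alike in the pool, was lower in sporadic peaks. Its medians were 7.34 against 8.78 at 20 to 24 tags, 5.83 against 7.29 at 30 to 39 tags and 4.60 against 5.54 at 60 to 99 tags. Counting each list by itself, the median fold enrichment was lower in sporadic peaks in 36 of the 37 classes with at least 20 sporadic peaks. The exception was TL at 11 to 12 tags, with 9.92 against 9.69. The share at chromosome ends was 19.6% in sporadic and 25.9% in recurring peaks in the pool. Under 20 tags, where most sporadic peaks lie, it was slightly lower in sporadic peaks, with 12.7% against 13.4% at 13 to 15 tags and 14.4% against 14.6% at 16 to 19 tags. In the classes from 20 tags upwards it was higher in sporadic peaks of the 4 lists together, as at 40 to 59 tags with 37.2% against 33.5% and at 60 to 99 tags with 50.6% against 44.8%. YH went the other way at 25 to 29 and at 30 to 39 tags, and YH and YL did at 200 tags or more. Counting each list by itself, it was higher in sporadic peaks in 26 of the 37 classes.

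**Figure D4:**
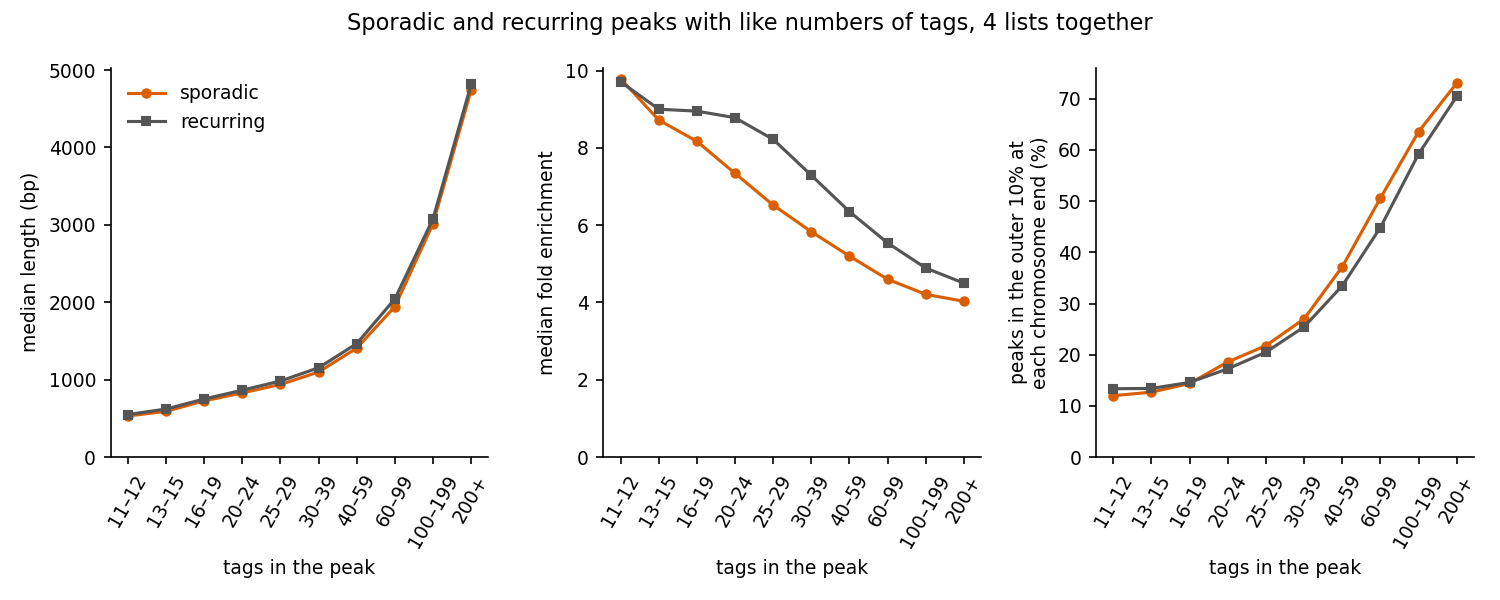
Median length, median fold enrichment and share in the outer 10% at each chromosome end (y axes) of sporadic and recurring peaks with like numbers of tags (x axis), over the 4 lists together. The lengths nearly coincide, with sporadic peaks shorter in each class. The fold enrichment of sporadic peaks is lower from 13 tags upwards, and the share at the ends is higher in sporadic peaks from 20 tags upwards.

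A small set of sporadic peaks had many tags. With at least 100 tags there were 341 in TH, 87 in TL, 126 in YH and 336 in YL, or 890 in all, which was 1.32% of the sporadic peaks. They made up 2.75% of all peaks of that size in TH (95% Wilson confidence interval 2.48–3.05%), 1.32% in TL (1.07–1.62%), 0.957% in YH (0.804–1.14%) and 1.76% in YL (1.58–1.96%). These were broad and shallow peaks, with a median length of 3116.5 bp and a median fold enrichment of 4.18, and none exceeded a fold enrichment of 7.85. Recurring peaks of at least 100 tags had about the same length (3161 bp) and a median fold enrichment of 4.85. Of the 890 peaks, 64.5% lay in the outer 10% of a chromosome at either end, against 60.2% of the recurring peaks of that size. Among peaks of 3000 bp or more, 573 of 34644 were sporadic (1.65%), from 1.01% in YH to 2.64% in TH.

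The sporadic peaks with the most tags illustrate this form. In the coordinates of Sscrofa10.2, the YL peak at chr18:21382241-21388710 had 378 tags over 6470 bp and a fold enrichment of 4, with the nearest other peak 8687 bp away. The YL peak at chr3:135471279-135477466 had 359 tags over 6188 bp. In TH, the leading peaks were chr12:55510620-55516735 with 319 tags and chr3:31526411-31532326 with 294 tags, at a fold enrichment of 4.11 and 4.13. In TL, the peak at chr4:142881098-142887787 had 304 tags, was also the longest sporadic peak of its list (6690 bp), and lay in the last 1% of its chromosome. The next TL peak by tags, chr9:5575015-5579936, had 245 tags and a neighbour 200 bp away. In YH, the peak at chr7:123738135-123743647 had 283 tags. The longest sporadic peak of any list was also from YH, at chr10:12251312-12258374, with 7063 bp, 259 tags and a neighbour 159 bp away. The longest ones of the other lists were chr9:11442582-11449144 in TH (6563 bp) and chr7:1413471-1420309 in YL (6839 bp). All of these had a fold enrichment under 5, whatever the group.

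The sporadic peaks with the highest fold enrichment were far smaller than those with the most tags, although each of the 8 named here had more tags than the median sporadic peak of its list. The TL peak at chr1:38605094-38605569 reached 25.85, the highest of all sporadic peaks, with 29 tags in 476 bp. The next in TL, chr7:93073434-93073926, had 19.39 with 22 tags in 493 bp. In YL, the peak at chr7:72655658-72656127 had 19.17 with 21 tags in 470 bp, and 3 peaks shared the next value of 18.26, among them chr14:127126526-127127281 with 22 tags in 756 bp. In TH, chr16:3594868-3596099 had 18.05 and chr11:18980288-18981193 had 17.68, each with 27 tags, in 1232 and 906 bp. In YH, chr9:78229956-78230830 had 17.69 with 27 tags in 875 bp and chr13:80758-81576 had 15.75 with 24 tags in 819 bp. The named TL and YL peaks were shorter than the median sporadic peak of their list, and the named TH and YH peaks were longer. Sporadic peaks with a fold enrichment of at least 12 numbered 1868 in all, with a median of 17 tags and 628.5 bp. They made up 4.94% of the sporadic peaks in TL, 3.42% in TH, 1.39% in YL and 1.21% in YH. Over all peaks the shares were 9.11% in TL, 12.4% in TH, 6.52% in YL and 5.48% in YH, so TL and TH were also above YL and YH in the lists as a whole.

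Along the chromosomes, sporadic peaks were spread more evenly than recurring peaks. Their density was 27.6 per Mb in the middle 80% of chromosomes 1 to 18 and 26.9 per Mb in the outer 10% at each end, a ratio of 0.974. Recurring peaks had 379 per Mb in the middle and 530.1 per Mb at the ends. Where peaks are dense, a peak has more chance to overlap another, so this difference is partly built into the rule. The share of sporadic peaks in the ends was 21.8% in TH (95% Wilson confidence interval 21.2–22.4%), 17.8% in TL (17.3–18.4%), 18.4% in YH (17.8–19.1%) and 19.8% in YL (19.2–20.3%). The recurring peaks of the 4 lists had between 25.4% and 26.3% there. TH was the list with sporadic peaks denser at the ends than in the middle, at a ratio of 1.11, while the ratio was 0.903 in YH, 0.869 in TL and 0.985 in YL. In twentieths of chromosome length, the first and the last held 24.2 and 24.1 sporadic peaks per Mb, the lowest of the 20, although they held 525 and 596 recurring peaks per Mb. The outermost twentieths were the lowest in YH, TL and YL but not in TH, which had 7.59 and 8.18 sporadic peaks per Mb there and its lowest density, 6.70 per Mb, in the interior. The twentieths just inside them held 29.4 and 29.9 sporadic peaks per Mb.

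**Figure D5:**
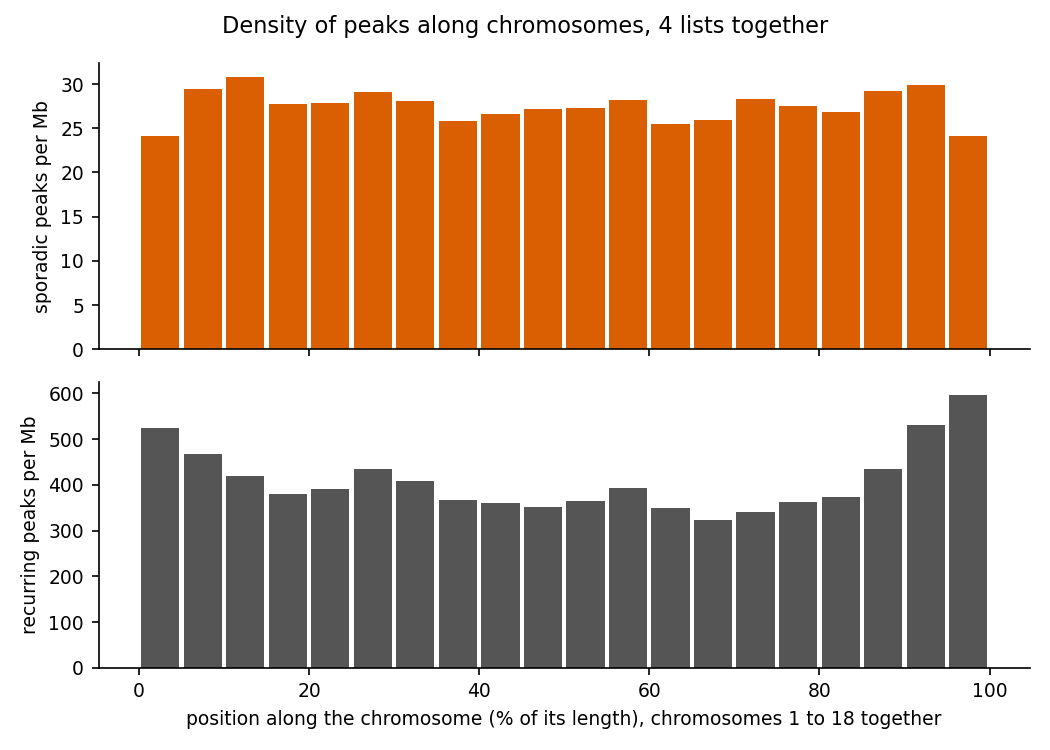
Sporadic peaks (top) and recurring peaks (bottom) per Mb, in twentieths of the length of chromosomes 1 to 18, over the 4 lists together. Recurring peaks are dense at both ends (525 and 596 per Mb), where sporadic peaks of the 4 lists together are least dense (24.2 and 24.1 per Mb), though those of TH alone are not. A peak among dense peaks has more chance to overlap another, so the contrast is partly built into the rule.

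Between chromosomes, the density of sporadic peaks ran from 23.9 per Mb on chromosome 1 to 31.4 per Mb on chromosome 10, a range of 1.32 times. That of recurring peaks ran from 316 per Mb on chromosome 15 to 535 per Mb on chromosome 10, or 1.69 times. The densities of both kinds rose together over the 18 chromosomes (Pearson's r = 0.738, Spearman's rho = 0.732), as a description, since all chromosomes were measured in the same libraries. The share of peaks that were sporadic was lowest on chromosome 18 (5.25%) and highest on chromosome 13 (7.55%). As at the chromosome ends, the rule itself lowers this share where peaks are dense. Chromosome 13 was highest in TH (8.22%), YH (6.19%) and YL (7.67%), while chromosome 15 was highest in TL (8.28%).

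In bins of 1 Mb, sporadic peaks levelled off where recurring peaks were dense. This is partly built into the rule, since a peak among many others has more chance to overlap another. The bins were also ordered by their recurring peaks, which enter the share. The 487 bins with the fewest recurring peaks had a mean of 111 recurring and 14.1 sporadic peaks, so that 11.2% of their peaks were sporadic. The 488 bins in the middle had 428 recurring and 31.2 sporadic peaks, and the 488 densest bins had 681 recurring and 33.3 sporadic peaks, or 4.66% sporadic. Each of the 2439 full bins held at least 1 sporadic peak. In bins of 100 kb, 20566 of 24503 (83.9%) held a sporadic peak, and in 699 bins the sporadic peaks, 1094 in all, were the only peaks of any list. No bin held more than 14. The bins with 14 were chr15:34700001-34800000 and chr7:56000001-56100000, and 5 bins had 13, at chr12:37300001-37400000, chr13:34700001-34800000, chr2:117100001-117200000, chr4:55300001-55400000 and chr7:81700001-81800000. Sporadic peaks of at least 3 lists were present in each of these 7 bins, with at most 7 from a single list, in the chromosome 13 bin from YL.

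Although a sporadic peak overlapped nothing, it usually had a neighbour close by. The median distance to the nearest other peak of any list was 2150.5 bp in TH, 2316 bp in TL, 2239 bp in YH and 2176 bp in YL. Another peak lay less than 500 bp away from 14.4% of the sporadic peaks, and 7.59% had none within 10 kb. No distance expected from the density of peaks was computed, so these distances have no baseline. The nearest peak was itself sporadic in 31.3% of the cases, while 6.30% of all the peaks compared were sporadic. These shares cannot be set against each other, because recurring peaks overlap and several can lie at the same place. The share of separate places held by a sporadic peak was not computed, so clustering of sporadic peaks was not tested. From 2000 bp onwards, sporadic peaks with a more distant neighbour had fewer tags. The median was 20 tags in each class under 2000 bp, 18 tags at 2000 to under 5000 bp, 15 tags at 10000 to under 50000 bp and 14 tags at 50000 bp or more. The fold enrichment went the other way, from between 7.15 and 7.22 in the classes under 2000 bp to 9.45 at 50000 bp or more. The share at chromosome ends fell from 22.7% at less than 100 bp to 9.62% at 50000 bp or more. At the limit of the rule, 640 sporadic peaks had a neighbour less than 50 bp away, with a median of 19 tags, 780.5 bp and a fold enrichment of 7.24. Just outside it, 410 peaks overlapped a single other peak by at most 50 bp, with a median of 18 tags, 767.5 bp and a fold enrichment of 7.74.

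The most isolated peaks lay far from any other peak. Towards the end of chromosome 1, successive peaks were chr1:295580220-295580669 from YL with 14 tags, chr1:296096186-296097060 from YH with 21 tags and chr1:296527339-296528373 from TH with 16 tags, followed by a TL peak that starts at 296770545 and was also sporadic. They were separated by 515516, 430278 and 242171 bp without a peak of any list. These are the most isolated sporadic peaks of YL, YH and TH. The most isolated one of TL, chr7:84662368-84662803 with 13 tags, lay 299026 bp from a YH peak and 413420 bp from a TH peak. In all, 364 sporadic peaks had no other peak within 50 kb and 72 had none within 100 kb, between 14 and 20 in each list.

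A few sporadic peaks could be placed at genes, through the windows of 500 bp for which the study lists a gene and an element. Those windows were selected by the study as differing between groups of these same animals, and a part of its table was used, so they show where single peaks lie and are no sample of the genome. At the promoter window of EPHX2, which encodes soluble epoxide hydrolase, an enzyme that breaks down epoxides of fatty acids, the TH peak chr14:12474856-12475678 was sporadic, with 28 tags, a fold enrichment of 7.64 and the nearest other peak 6310 bp away. In an intron of FGFR2, a receptor for fibroblast growth factors, the YH peak chr14:142558255-142560257 was sporadic, with 55 tags and a fold enrichment of 3.80. These were the 2 windows with a sporadic peak among the 16 windows used for genes that the study discusses. At BCKDHB, a subunit of the branched-chain keto acid dehydrogenase, and at SMAD2, IGF1R and MAP2K1, every peak over a listed window recurred. The IGF1R window chr1:153677001-153677500 had no peak of any list. At FOXO1, the promoter windows had 3 TH and 4 TL peaks and 0 peaks of YH and YL, all recurring.

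Of the 49 windows used that are listed as promoter, UTR or coding sequence, 8 had a sporadic peak and 12 had no peak of any list. No share over all windows of the genome stands beside these counts, so they do not describe promoters or coding sequence in general. The 8 windows rest on 7 peaks, since 1 peak covered 2 windows of CRAT. In TL, chr1:303421496-303423368 with 48 tags overlapped both promoter windows of CRAT, the carnitine acetyltransferase of mitochondria and peroxisomes. In YH, chr1:307271998-307272898 with 32 tags lay at the promoter of SARDH, the sarcosine dehydrogenase, and chr12:55257087-55258486 with 50 tags at that of SAT2, an acetyltransferase, 72 bp from the next peak. Also in YH, chr14:114738116-114739006 with 27 tags lay at the promoter of O3FAR1, a receptor for long-chain fatty acids, and chr1:212744047-212744975 with 26 tags in coding sequence of MRPS11, a protein of the mitochondrial ribosome. In YL, chr12:24290764-24292708 with 52 tags lay at the promoter of the microRNA gene MIR152. All of these had more tags than the median sporadic peak of their list. No peak here was seen in more than 1 animal on the reading above, so none can be assigned to a breed or an elevation.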

How the data were processed

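MeDIP-seq data of 16 heart samples were analysed as 4 deposited peak lists, 1 per group of 4 animals. According to the methods, the authors used FASTX for trimming, Bowtie for mapping (Sscrofa10.2) and MACS for peaks. The position, length and summit (bp), the number of tags (a count without normalization) and the fold enrichment (a ratio to background) were used as deposited by the authors. The end of each peak was taken from the joint start and end field, because 100907 TH rows have no separate end. Overlaps were counted on chromosomes 1 to 18 and checked on simulated data. Chromosome length was the largest peak end. Reads were those of the study's sequencing summary, summed per group. Shares have 95% Wilson intervals for counting error. No test was made, since the lists hold no values per animal and overlap chose the peaks. Regions named were, per list, the 2 with most tags, the 2 with highest fold enrichment, the longest and the most isolated, then the 5 fullest bins of 100 kb with ties, and peaks at listed gene windows. The members and lists were chosen with earlier results of these data known. Alternatives were another overlap or distance, chromosome X, a minimum of 20 tags, the own list alone, each list left out, mapped reads, means, tags per kb or per 1000000 reads and other limits for ends. No sequence is printed, because no genome of Sscrofa10.2 was used here. Overlaps and shares were computed with pandas 2.3.3, NumPy 2.4.6 and SciPy 1.17.1 in Python 3.11.15, and plots with Matplotlib 3.10.9.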

Additional observations from a re-analysis of the deposited data

Results flagged for a closer look

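Sporadic peaks were also present outside chromosomes 1 to 18, in data that the comparisons above do not use. They are given as values, and their presence alone carries no information in lists of this size. On chromosome X there were 839 in TH, 251 in TL, 707 in YH and 909 in YL, between 6.57% (TL) and 11.96% (TH) of the X peaks of these lists. TL, with 3821 X peaks against 7015 to 8911 in the other lists, had the lowest share of sporadic peaks on X, while its share on chromosomes 1 to 18 (6.80%) was the next highest after TH. On unplaced scaffolds there were 784 sporadic peaks in TH, 723 in TL, 667 in YH and 874 in YL, between 4.15% and 5.30% of the scaffold peaks.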

How the results depend on the processing

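No paired analysis was possible because the lists hold no animal names, and no animal could be left out by name. The TH rows that lack a separate end do not overlap each other. Leaving them out may therefore leave out 1 animal, which was not tested. The number of sporadic peaks stayed within 1.5 times when an overlap had to cover 50% of both peaks, when peaks within 500 bp counted as recurring and with chromosome X. Searching the own list alone gave 65515 in TH, 65427 in TL, 60267 in YH and 64299 in YL, by construction a wider set. A minimum of 20 tags gave 11986 in TH and 8349 in TL, and leaving out YL gave 21467 in YH. The other numbers under these settings kept within 1.5 times. Without the TH rows that lack a separate end, a setting chosen after seeing the data, there were 13771 in TH, with 14693 in YH, 17923 in TL and 21178 in YL, so that TH, whose rows were removed, had the fewest, also per 1000000 reads, but still the highest share (8.25%). Per 1000000 mapped reads, there were 193 in TH, 188 in TL, 135 in YH and 183 in YL. The share of a list was 9.07% in TH, 8.60% in TL, 6.40% in YH and 7.87% in YL with 50% overlap, and 6.08%, 5.85%, 4.40% and 5.32% with the 500 bp distance. With X it was 7.26% in TH, 5.23% in YH and 6.34% in YL, and with 20 tags 6.64%, 5.27%, 5.26% and 7.18% in TH, YH, TL and YL. YH thus had the lowest share except with 20 tags, where TL had it by a narrow margin, and with the own list alone, where YL had the lowest share (21.0%) and YH the lowest number. Means were 873 bp, 24.7 tags and a fold enrichment of 7.74 in sporadic peaks, and 1241 bp, 39.2 tags and 8.06 in recurring peaks. With the 500 bp distance, the medians were 749 and 1020 bp, and the fold enrichment of sporadic peaks was 7.77. Tags per kb were 25.8 and 28.2, and tags per 1000000 reads of a mean animal 1.14 and 1.82. The outer 5% at each end held 8.79% of sporadic and 13.7% of recurring peaks, and the outer 5 Mb 6.26% and 10.19%. The cause of these changes was not tested.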

Other observations

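In the TH list, 92036 peaks on chromosomes 1 to 18 lack a separate end, and no 2 of them overlap each other, while up to 3 of the other 166825 TH peaks cover a base. The rows carry no animal name. Of the peaks without a separate end, 6932 were sporadic (7.53%, 95% Wilson confidence interval 7.36–7.70%), against 11524 of the others (6.91%, 6.79–7.03%). They held 158 of the 341 TH sporadic peaks with at least 100 tags.

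The 20 most frequent values of fold enrichment covered 25.5% of the sporadic peaks in TH, 30.7% in TL, 28.4% in YH and 27.6% in YL, against 14.2% to 15.1% of the recurring peaks. The sporadic peaks had between 797 (YH) and 945 (TH) different values in all. Among the TH sporadic peaks without a separate end, the 8 most frequent values ran from 6.54 to 11.63 in steps of 0.72 or 0.73. The value 9.45 was found 527 times there and 0 times in the other TH sporadic peaks, and 8.72 was found 411 times there and 1 time in the others.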
